A study of Mus musculus with 4 samples.

Results

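Neuronal microRNAs were followed in RNA of whole E18.5 embryos of C57BL/6 mice, read by TaqMan PCR assays. There were 2 wild-type samples and 2 ER-alpha knockout samples. ER-alpha is the estrogen-activated transcription factor encoded by Esr1, and its loss is taken from the labels. The set was chosen by name and covers every assay for miR-9, miR-124, miR-128, miR-137, miR-138, miR-153 and miR-219, whichever arm or rodent species the assay was designed for. It held 9 of the 375 microRNA assays read in all 4 samples. The study was a comparison of 2 genotypes, and the labels give neither the knockout allele nor whether a sample was a single embryo or a pool, so p-values measure only how far these particular samples spread, which may be technical. Readings are threshold cycles (Ct): more RNA crosses the threshold earlier, and 1 cycle is taken as 1 log2 unit. PCR gives no read counts, and with 2 samples per group the number of samples limits the precision. In whole-embryo RNA, fewer neural cells and less of a microRNA per neural cell cannot be told apart.

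MicroRNAs are short RNAs that guide Argonaute proteins to messenger RNAs, mainly through the seed, bases 2 to 8 of the mature strand, and lower the output of those messages. The neural members are switched on as the nervous system forms. miR-9 acts in neural progenitors and young neurons, miR-124 is the classic neuron-specific microRNA and represses the splicing regulator Ptbp1, and miR-128 and miR-137 act in neuronal differentiation and excitability. miR-138 limits dendritic spine size, miR-153 targets synaptic vesicle genes, and miR-219 drives the maturation of oligodendrocytes, the myelin-forming glia.

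Mature sequences are shown because the members share a tissue but not a target code. The RefSeq table used here (build GRCm38.p6) gave the mature strand of 7 of the 9 assays, with the arm taken from the usual renaming of the panel's older names. mmu-miR-124 and rno-miR-219-2-3p are named only. The rat-named rno-miR-219-1-3p was matched to the mouse strand and is counted below, but its sequence is not printed. The sequences run 5′ to 3′ and the capitals mark the seed.
mmu-miR-9: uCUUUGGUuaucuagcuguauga
mmu-miR-138: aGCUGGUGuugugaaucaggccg
mmu-miR-137: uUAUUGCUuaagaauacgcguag
mmu-miR-128a: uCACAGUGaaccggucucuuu
mmu-miR-219: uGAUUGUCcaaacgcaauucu
mmu-miR-153: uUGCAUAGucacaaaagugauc
The 7 matched assays had 7 distinct seeds, and any pair differed at 3 or more of the seed positions. Among 1679 mature mouse names searched on bases 2 to 8 and 3 to 9, the seed letters of a member recurred in miR-27a and miR-27b, where CACAGUG of miR-128a lies at bases 3 to 9. A match of letters is a description and says nothing of shared targets.

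Several members are made from more than 1 gene, so 1 Ct sums the product of all copies. In GRCm38.p6, miR-9 came from 3 hairpins, each within the span of a long non-coding RNA gene: Mir9-1 at chr3:88215598-88215686 (Gm3764), Mir9-2 at chr13:83738814-83738885 (C130071C03Rik) and Mir9-3 at chr7:79505264-79505353 (Mir9-3hg), all on the plus strand. The 2 hairpins of miR-128 lay within the spans of protein-coding genes, Mir128-1 at chr1:128202361-128202430 on the plus strand in R3hdm1 and Mir128-2 at chr9:112118636-112118711 on the minus strand in Arpp21. For miR-138 the copies were Mir138-1 at chr9:122682876-122682974, with no gene around it in the table used, and Mir138-2 at chr8:94324311-94324381 within Nup93, both on the plus strand. Mir137 lay at chr3:118433857-118433929 on the plus strand, also with no gene around it in that table. The 2 copies of miR-219 were Mir219a-1 at chr17:34024983-34025092 and Mir219a-2 at chr2:29845631-29845727 within Cercam, both on the minus strand, and Mir153 lay at chr12:117250817-117250885 on the plus strand, within the spans of Ptprn2 and the non-coding Gm5441. Exon and intron positions were not analysed here.

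One sample, wild-type replicate 1, was unlike the rest. Over the 229 microRNAs detected in every sample (Ct of 35 or lower), Pearson's r between its Ct values and those of another sample was 0.939 to 0.954, against 0.978 to 0.989 between any 2 of the rest. These correlations are across assays, which are not independent replicates. Once a constant of 0.273 cycles shared by its wells was taken off, 7 of its 8 amplified neuronal wells were no more than 0.1 cycle off a whole number of cycles, mmu-miR-219 being the exception at 0.269. The same held for 90.0% of all amplified wells of this sample, against 21.0% to 26.5% in the others. Neuronal values of this sample are therefore known to about a whole cycle, and the fold changes and Ct differences of the members are also given without it. Some markers of other tissues of the embryo amplified early in every sample. They included mmu-miR-133a of striated muscle at Ct 19.96 to 21.27, mmu-miR-126-3p of endothelium at 20.16 to 21.23 and mmu-miR-122 of liver at 24.82 to 27.22. Not all markers did: mmu-miR-208, also of muscle, was read only in wild-type replicate 1, at Ct 35.25.

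Of the 9 neuronal assays, 5 were detected in all 4 samples: mmu-miR-9, mmu-miR-138, mmu-miR-124, mmu-miR-137 and mmu-miR-128a. The count detected was 7 and 5 in the wild-type samples, and 6 and 5 in the knockout samples, with replicate 1 first. Only the 5 entered the test between genotypes, and the other 4 are described by their wells.

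mmu-miR-9 had the earliest mean Ct of the set. Its Ct was 24.24 and 23.53 in the wild-type samples and 24.20 and 23.44 in the knockout samples, always with replicate 1 first. It ranked 21 of the 229 by mean Ct, and mmu-miR-138 ranked 33. Ct of mmu-miR-138 was 27.25 and 24.04 in wild-type and 24.16 and 23.76 in knockout samples, so wild-type replicate 1 was at least 3 cycles later than each of the others. The other 3 came up later, at ranks 146 to 173. mmu-miR-124 had Ct 29.24 and 28.62 in wild-type and 29.57 and 29.55 in knockout samples, the knockout wells being later than both wild-type wells. mmu-miR-137 had Ct 30.24 and 28.89 in wild-type and 28.90 and 28.96 in knockout samples. Outside wild-type replicate 1 its Ct, not scaled between samples, spanned 0.065 cycles, the narrowest range of the 5. mmu-miR-128a had Ct 32.25 and 29.66 in wild-type and 30.43 and 30.22 in knockout samples, again with wild-type replicate 1 latest.

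The order of mean Ct was mmu-miR-9 (23.85), mmu-miR-138 (24.81), mmu-miR-124 (29.25), mmu-miR-137 (29.25) and mmu-miR-128a (30.64). It sets assays of unknown efficiency side by side, so it is an order of assays, not of copies. Neighbours did not all separate: mmu-miR-138 and mmu-miR-9 differed by 0.043 to 3.01 cycles within a sample, and mmu-miR-138 came first in knockout replicate 1. mmu-miR-124 and mmu-miR-137 also changed places between samples. Without wild-type replicate 1 the mean Ct was 23.72 for mmu-miR-9, 23.99 for mmu-miR-138, 28.92 for mmu-miR-137, 29.25 for mmu-miR-124 and 30.10 for mmu-miR-128a, which puts mmu-miR-137 before mmu-miR-124. The wells of mmu-miR-9 and mmu-miR-138 on 1 side and those of the later 3 on the other did not overlap, leaving more than a cycle between them.

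**Figure D1:**
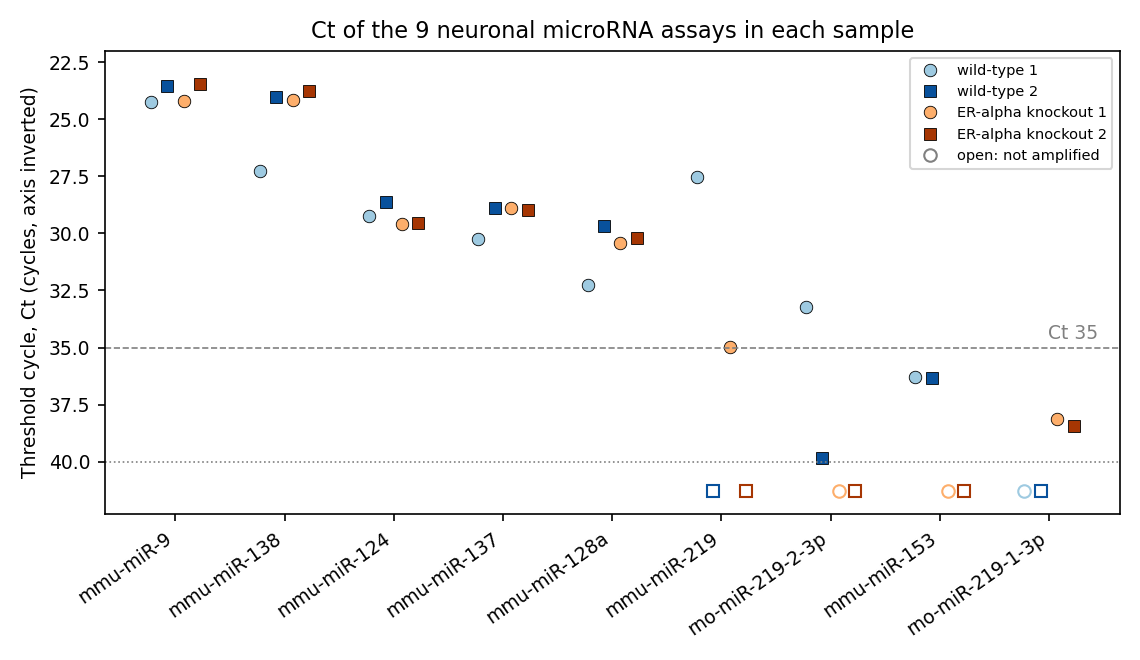
Threshold cycle (Ct, cycles, axis inverted so that more RNA is higher) of the 9 neuronal assays in each sample, with circles for replicate 1 and squares for replicate 2 of each genotype, blue for wild-type and orange or brown for knockout, open symbols for wells without amplification and dashed and dotted lines at Ct 35 and cycle 40. The 5 assays on the left were detected in all 4 samples, and mmu-miR-219 was read at Ct 27.54 in wild-type replicate 1 and at 34.98 in knockout replicate 1 but not in the other samples.

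The comparison of genotypes asked whether loss of ER-alpha goes with other levels of the neuronal microRNAs. On levels centred on the median microRNA of each sample, mmu-miR-138 stood at a higher mean in knockout embryos and mmu-miR-124 at a lower mean, while mmu-miR-9, mmu-miR-128a and mmu-miR-137 had groups that overlapped. The groups thus did not overlap in 2 of the 5, and in 39.3% of the 229 tested. None of the 5 passed an adjusted p of 0.05 in limma over all 229 assays, of which 0% passed, and 1 of the 5 (mmu-miR-138) had an unadjusted p under 0.05, as did 4.37% of all tested. The median log2 fold change of the 5 was 0.34, and that of all 229 was 0.26, so members are read against 0.26 and not against 0. Above it lay 3 of the 5. Without wild-type replicate 1 the medians were 0.020 for the 5 and -0.031 for the 241 microRNAs then detected throughout.

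Relative levels of mmu-miR-138, in log2 units over the median microRNA, were 1.98 and 3.32 in the wild-type and 4.03 and 4.06 in the knockout samples. Both knockout samples lay above both wild-type samples, as they did for 33.2% of the 229 tested, and the wild-type samples lay farther from each other than wild-type replicate 2 lay from the knockouts. The means were 2.65 ± 0.95 in wild-type and 4.05 ± 0.020 in knockout embryos (SD, n = 2 each), a log2 fold change of 1.39 (95% interval 0.14 to 2.65), or 2.63-fold. limma gave an unadjusted p = 0.0291 and an adjusted p = 0.741, so the difference did not pass. These values are set against 0, and the interval also holds the 0.26 of all assays, against which mmu-miR-138 was at 1.13. The unadjusted limma p depended on the scaling and on how the variance was modelled. It was 0.0567 with control scaling, 0.104 with no normalization, 0.130 with quantile normalization and 0.123 with average-profile centring, but 0.0295 with the constant removed. With the scaling unchanged, the unadjusted p of the limma fit was 0.173 with ordinary variances. It was 0.0063 with the replicate block and 0.00102 with trend and robust eBayes. The interval of 0.14 to 2.65 uses a standard error shared by all assays, so it holds only for the main fit. The log2 fold change itself was 1.39 in each of these variance fits. Its size rested on wild-type replicate 1: without that sample it was 0.39 (0.73 when the assays and centring of all 4 samples were kept), and without wild-type replicate 2 it was 2.18, with a limma adjusted p of 0.111. With the centring of all 4 samples kept, the value without wild-type replicate 2 was 2.06 and passed (adjusted p = 0.0181), a fit in which the knockout samples alone give the spread. On the Ct scale itself, wild-type replicate 2 at 24.04 lay between the knockout wells at 23.76 and 24.16.

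Levels of mmu-miR-124 were -0.010 and -1.26 in the wild-type and -1.38 and -1.73 in the knockout samples. Both knockout samples lay below both wild-type samples, which held for 6.11% of the 229 tested; wild-type replicate 2 was close to knockout replicate 1. The means were -0.64 ± 0.88 in wild-type and -1.55 ± 0.25 in knockout embryos (SD, n = 2 each). The log2 fold change was -0.92 (95% interval -2.17 to 0.34; limma adjusted p = 0.939), or 0.53-fold, and 5.24% of the tested assays had a lower value. Without wild-type replicate 1 it was -0.62, or -0.29 with the centring of all 4 samples kept, and without wild-type replicate 2 it was -1.43. Of the 5 members, mmu-miR-124 had the only Ct mean that was later in knockout embryos (0.62 cycles later). Ct is not scaled here, and with no normalization the median log2 fold change of all assays was 0.55, toward earlier Ct in knockout samples. On centred levels the mean of mmu-miR-9 was also lower in knockout embryos (log2 fold change -0.23).

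mmu-miR-9, read at levels of 4.99 and 3.84 in wild-type and 3.99 and 4.38 in knockout replicates 1 and 2, had knockout values between the wild-type ones. Its means were 4.41 ± 0.82 and 4.19 ± 0.28 (SD, n = 2 each), a log2 fold change of -0.23 (95% interval -1.48 to 1.03), and it became 0.020 without wild-type replicate 1. Relative to the median of all assays it was -0.49, and 0.051 without that sample. mmu-miR-137 had levels of -1.0 and -1.53 in wild-type and -0.71 and -1.13 in knockout samples, means of -1.27 ± 0.37 and -0.92 ± 0.30 and a log2 fold change of 0.34 (-0.91 to 1.59), or 0.27 without wild-type replicate 1. mmu-miR-128a had levels of -3.01 and -2.29 in wild-type and -2.24 and -2.39 in knockout samples, means of -2.65 ± 0.51 and -2.31 ± 0.11 and a log2 fold change of 0.34 (-0.91 to 1.59), which became -0.35 without wild-type replicate 1. Each of these intervals allows a change of more than 2-fold in at least 1 direction, so the values do not show that the genotypes were alike. miR-27a and miR-27b, which carry the seed letters of miR-128a 1 base further in, had log2 fold changes of 0.26 and 0.35.

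**Figure D2:**
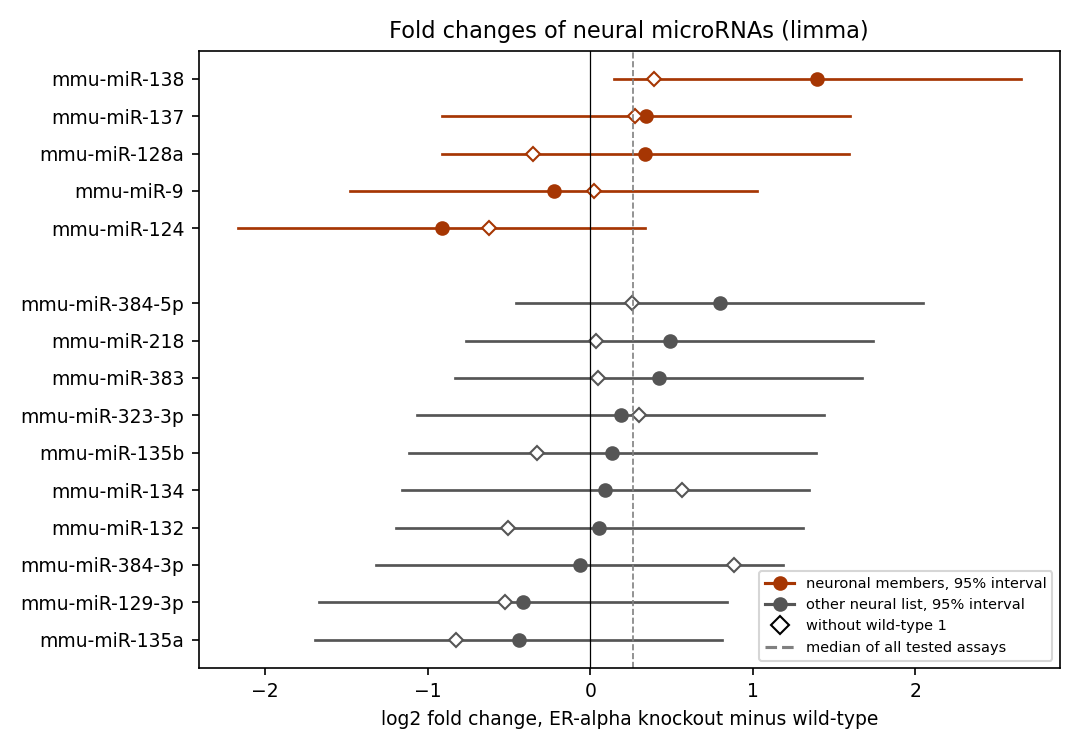
log2 fold change (ER-alpha knockout minus wild-type, horizontal axis) of the 5 neuronal members and of the 10 tested assays of the other neural list, as filled circles with 95% limma intervals; open diamonds give the value without wild-type replicate 1, and the dashed line is the median of the 229 tested assays. mmu-miR-138 is farthest right at 1.39 and mmu-miR-124 farthest left at -0.92, and the diamonds of both lie closer to 0, at 0.39 and -0.62.

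Differences of Ct between members of 1 sample need no scaling, since any shift shared by its wells drops out. Set against mmu-miR-124, the Ct of mmu-miR-137 differed by 0.99 and 0.27 cycles in the wild-type samples but by -0.66 and -0.59 cycles in the knockout samples, where a positive value means that mmu-miR-137 came up later. The pair thus changed order between the genotypes, with a mean of 0.63 ± 0.51 cycles in wild-type and -0.63 ± 0.049 in knockout (SD, n = 2 each), a difference of -1.26 cycles (-0.89 without wild-type replicate 1). Measured the same way, mmu-miR-138 minus mmu-miR-124 was -1.99 and -4.58 in wild-type and -5.41 and -5.79 in knockout samples. mmu-miR-9 minus mmu-miR-124 was -5.0 and -5.10 in wild-type and -5.36 and -6.11 in knockout samples, and here the wild-type samples differed from each other by less than the knockout samples did. mmu-miR-128a minus mmu-miR-124 was 3.0 and 1.03 in wild-type and 0.86 and 0.67 in knockout samples. In all 4 of these pairs the other member was earlier, relative to mmu-miR-124, in both knockout samples than in both wild-type samples, and the 4 pairs share the wells of mmu-miR-124, so they are a single pattern. The shift from wild-type to knockout was -2.31, -1.26, -1.25 and -0.69 cycles for mmu-miR-138, mmu-miR-137, mmu-miR-128a and mmu-miR-9. Without wild-type replicate 1 it was -1.02, -0.89, -0.27 and -0.64.

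Among the 10 pairs of the 5 members, the genotypes did not overlap in 6, and 34.4% of all 26106 pairs of tested assays did not overlap either. A two-sided exact permutation test returned p = 0.333 for each of those 6, the smallest that 2 against 2 samples can give, and 0.556 adjusted over the 10 pairs, so this test cannot reach 0.05 here. The 6 were the 4 pairs with mmu-miR-124 and the pairs of mmu-miR-138 with mmu-miR-128a (-4.99 and -5.61 cycles in wild-type, -6.27 and -6.45 in knockout) and with mmu-miR-9 (-3.01 and -0.52 in wild-type, 0.043 and -0.33 in knockout, as mmu-miR-9 minus mmu-miR-138). The shift from wild-type to knockout was -1.06 cycles for the former and 1.62 for the latter, and -0.75 and 0.37 without wild-type replicate 1. mmu-miR-137 and mmu-miR-128a kept nearly the same mean spacing in both genotypes, -1.39 ± 0.88 cycles in wild-type and -1.39 ± 0.19 in knockout (SD, n = 2 each), but without wild-type replicate 1 the genotypes differed by -0.63 cycles.

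**Figure D3:**
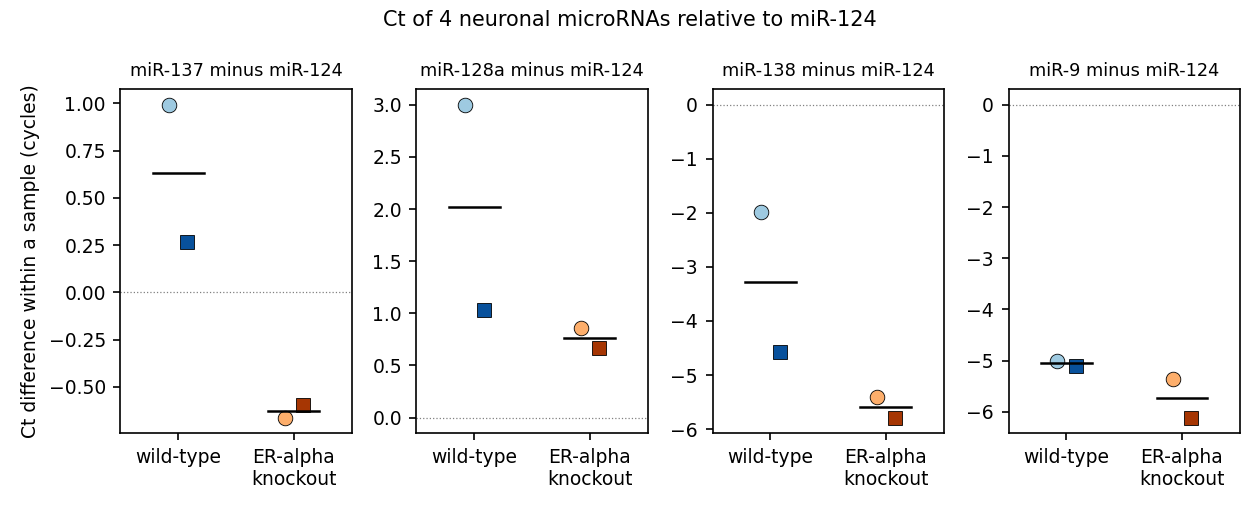
Within-sample Ct difference (cycles) between mmu-miR-124 and each of 4 other neuronal microRNAs, with circles for replicate 1, squares for replicate 2, blue for wild-type, orange or brown for knockout and a black bar for the group mean; each panel has its own scale. miR-137 minus miR-124 is above 0 in both wild-type samples (0.99 and 0.27) and below 0 in both knockout samples (-0.66 and -0.59).

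The remaining 4 assays were read late or in part of the samples. mmu-miR-219, the oligodendrocyte microRNA, had Ct 27.54 in wild-type replicate 1 and 34.98 in knockout replicate 1 and did not amplify within 40 cycles in the second sample of either genotype. The well of wild-type replicate 1 is the one that lay off the whole cycles. The assays for the opposite strand of its 2 hairpins read otherwise: rno-miR-219-2-3p had Ct 33.22 and 39.84 in the wild-type samples and did not amplify in knockout samples, and rno-miR-219-1-3p had Ct 38.14 and 38.44 in the knockout samples and did not amplify in wild-type samples. mmu-miR-338-3p, another oligodendrocyte microRNA, had Ct 35.27 and 36.94 in wild-type and 32.79 and 36.11 in knockout samples. So 0 of these 4 oligodendrocyte assays were detected in all samples, and none entered the test. mmu-miR-153 was read at Ct 36.27 and 36.34 in the wild-type samples and did not amplify in the knockout samples. Amplification in both wild-type and neither knockout sample was seen for 7 of the 375 assays (1.87%), among them mmu-miR-153 and rno-miR-219-2-3p, and the reverse for 1 of 375 (0.267%), which was rno-miR-219-1-3p. Outside wild-type replicate 1, every amplified well of these 3 assays was later than the detection limit of Ct 35, and no test was made.

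The wider neural list held microRNAs known from synapses, motor neurons and maturing neurons, and 10 of its 16 assays were detected in all samples. By limma 0 of the 10 passed an adjusted p of 0.05 and 0 had an unadjusted p under 0.05, beside 10 of all 229. Their median log2 fold change was 0.11, with 3 of 10 above the 0.26 of all assays, and 0.040 without wild-type replicate 1. The largest in absolute value were mmu-miR-384-5p at 0.80, mmu-miR-218, a motor neuron microRNA, at 0.49, mmu-miR-135a at -0.44 and mmu-miR-383 at 0.42; without wild-type replicate 1 they were 0.25, 0.034, -0.83 and 0.045. Read against the median of all assays, the largest were mmu-miR-135a (-0.70), mmu-miR-129-3p (-0.68) and mmu-miR-384-5p (0.53), while mmu-miR-383 was at 0.16. mmu-miR-384-5p had levels of 0.0020 and 0.42 in wild-type and 0.87 and 1.14 in knockout samples. mmu-miR-132, an activity-regulated neuronal microRNA, had levels of -0.057 and 0.41 in wild-type and -0.097 and 0.56 in knockout samples. The neural assays thus spread to both sides of the median of all assays, as the members did.

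Over the 4 samples, levels of mmu-miR-138 varied more than those of most assays (SD 0.97, with 14 of the 229 above it), and so did those of mmu-miR-124 (0.75, with 35 above it), against a median SD of 0.45. Without wild-type replicate 1 the SD was 0.42 for mmu-miR-138 and 0.24 for mmu-miR-124, with 77 and 168 assays above them. mmu-miR-128a was among the steadiest then, at 0.079 with 219 assays above it, against a median SD of 0.34. mmu-miR-9 was at 0.28 with 150 above it. mmu-miR-137 was at 0.41 with 84 above it, although its unscaled Ct had the narrowest range of the members. By the root mean square difference of levels after each assay's own mean was taken off, the assays nearest to mmu-miR-124 were mmu-miR-99b (0.15) and mmu-miR-500 (0.17), against a median of 0.78, and the other members ranked from 26 of the 228 others (mmu-miR-9, 0.44) to 224 (mmu-miR-138, 1.48). With wild-type replicate 1 left out, mmu-miR-128a was the closest member to mmu-miR-124, at rank 13 (0.15), and mmu-miR-9 was at rank 153. The nearest to mmu-miR-138 were mmu-miR-539 (0.11) and mmu-miR-484 (0.23), to mmu-miR-137 mmu-miR-136 (0.039) and mmu-miR-429 (0.052), to mmu-miR-128a mmu-miR-495 (0.076) and mmu-miR-433 (0.092), and to mmu-miR-9 mmu-miR-296-3p (0.094) and mmu-miR-501-3p (0.14). These nearest assays ranked between 3 and 82 when wild-type replicate 1 was left out. These are descriptions over 4 samples. Close matches can be expected among 229 assays, and how near the nearest assay lies for other profiles was not examined.

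**Figure D4:**
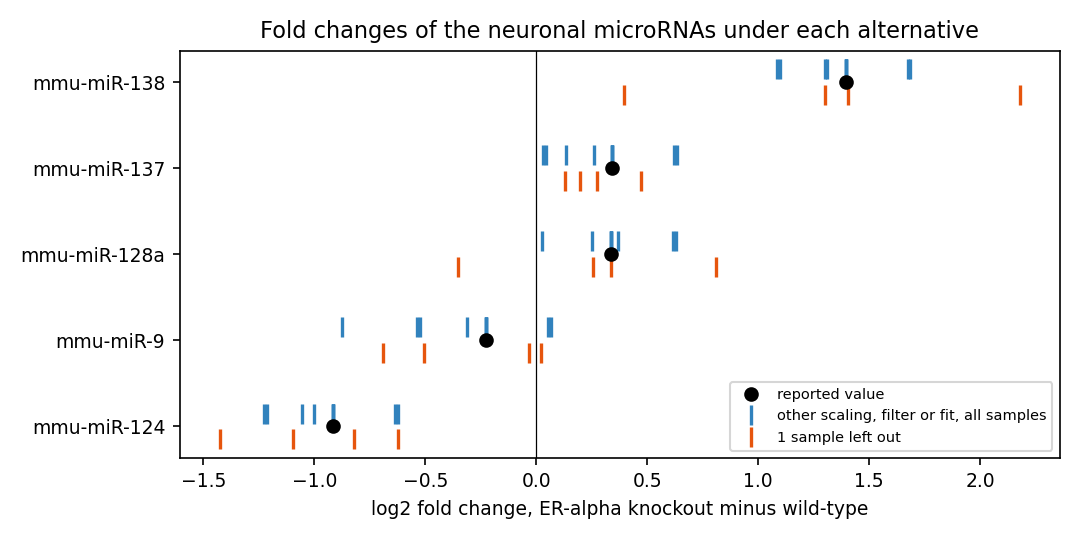
log2 fold change (ER-alpha knockout minus wild-type, horizontal axis) of each of the 5 tested neuronal microRNAs as reported (black circle), under other scalings, filters and fits with all samples (blue ticks) and with each sample left out in turn (orange ticks). mmu-miR-138 and mmu-miR-137 stay above 0 and mmu-miR-124 below 0 in every tick, while mmu-miR-9 and mmu-miR-128a lie on both sides of 0 (not of the median of all assays), and without wild-type replicate 1 mmu-miR-138 is at 0.39.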

How the data were processed

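Total RNA was isolated with TRIzol and read with TaqMan assays over 40 cycles, per the labels' protocols. The authors deposited 1 threshold cycle (Ct) score per well, per the file headers; threshold, baseline and any normalization are not given in the sources used here. Wells written as undetermined, or in wild-type replicate 1 above cycle 40, were taken as not amplified. In that file all wells but U6 carry a constant of 0.273, which was kept. Lines without an assay, 1141 in knockout replicate 2, were not used.

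A microRNA was detected at a Ct of 35 or lower. From every Ct the sample's median over the 229 microRNAs detected throughout was subtracted, and the level is the negative of that difference. This takes a cycle as a doubling and removes any change shared by all microRNAs. The genotypes were compared by two-sided moderated tests in limma 3.58.1 (R 4.3.3, with lmFit, eBayes and no covariate), adjusted by Benjamini-Hochberg over the 229. The prior degrees of freedom were infinite, so every assay has a standard error of 0.64. The procedure was run on simulated data with independent noise, equal in all assays, and no outlying sample. That run therefore does not check the p-values of these data. Detected microRNAs numbered 290 and 254 in wild-type and 260 and 259 in knockout replicates 1 and 2. Python 3.11.15 with pandas 2.3.3 handled the tables. The members and lists were chosen with earlier results of these data known. Named are all members, the 2 assays nearest each tested member, and the 4 of the wider neural list with the largest absolute fold change; mmu-miR-129-3p, mmu-miR-132, mmu-miR-27a and mmu-miR-27b were added after their values were seen. The wider list was miR-132, miR-212, miR-129, miR-134, miR-135a, miR-135b, miR-218, miR-323, miR-326, miR-330, miR-338, miR-346, miR-383, miR-384, miR-485 and miR-488; a sample was also left out in turn with the centring kept, an alternative chosen after seeing the data.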

Additional observations from a re-analysis of the deposited data

How the results depend on the processing

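Results were recomputed with scaling to 5 small-RNA controls, no normalization, quantile normalization, average-profile centring, the constant removed, a detection limit of Ct 32 (which leaves out mmu-miR-128a), no filter with wells at cycle 40, ordinary variances, trend and robust eBayes, the replicate block and each sample left out. With 1 sample left in a group, the lone sample is assumed to vary like the other group. The count of neuronal microRNAs past the threshold was 0 with all samples and 0 to 1 with a sample left out, the 1 being mmu-miR-138 without wild-type replicate 2 with the centring kept. The count over all assays was 0 to 13 with a sample left out (13 when wild-type replicate 2 was the one left out and 1 when it was wild-type replicate 1, both with the centring kept) and 1 under the replicate block, where no member passed (limma adjusted p = 0.160 for mmu-miR-138). Deviations of same-numbered samples correlated across assays (r = 0.37), yet only 2 pairs exist and the labels do not say what the number stands for, so the samples were not treated as paired. The median of the members minus that of all assays was 0.07, and ranged from -0.29 to 0.34.

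Of 18 alternatives, 4 leave a member's log2 fold change as it is by construction. Read against the median of all assays, control scaling, no normalization and average-profile centring also change nothing, since they shift all assays alike. The replicate block, ordinary variances and trend and robust eBayes change nothing there either. The setting with no filter, also among the 4, does move values there. Its median of all assays is -0.00094, so every member lies higher against it, mmu-miR-9 at -0.23 in place of -0.49. None of the other settings named so far could move a member across the median, and the counts that follow include all of them. On this scale mmu-miR-138 (0.43 to 1.85) and mmu-miR-124 (-1.76 to -0.59) stayed on their side in all 18. mmu-miR-137 did in 15 (-0.14 to 0.34), mmu-miR-9 in 16 (-1.03 to 0.051) and mmu-miR-128a in 13 of 17 (-0.32 to 0.48). Against 0, mmu-miR-9 was at 0.052 with control scaling and 0.065 with no normalization, which shift all assays alike and leave it at -0.49 against their median, and it ranged from -0.69 to 0.020 with a sample left out, or from -0.81 to 0.35 with the centring kept. mmu-miR-128a ranged from -0.35 to 0.81 with a sample left out, or from -0.021 to 0.70 with the centring kept. mmu-miR-218 turned to -0.079 with quantile normalization. With a sample left out mmu-miR-135a ranged from -1.03 to 0.069, or from -0.96 to 0.073 with the centring kept, the highest in both being without knockout replicate 1. The causes of the other turns were not tested. The median of all assays moved from 0.26 to 0.54 with control scaling, 0.55 with no normalization, 0.045 with quantile normalization and -0.048 with average-profile centring. In the main limma fit a change needed to reach 2.38-fold for an unadjusted p of 0.05. Passing the adjusted threshold took more, since mmu-miR-138 at 2.63-fold did not pass. Smaller differences could thus go unseen, and the 2.38-fold holds only for that fit, as the standard error differed between settings.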

Other observations

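The 2 knockout samples differed in several neural microRNAs, in both directions. In knockout replicate 1 the level of mmu-miR-135a was lower than in replicate 2 (difference -1.03 log2 units), as were those of mmu-miR-129-3p (-0.66), mmu-miR-132 (-0.66), mmu-miR-135b (-0.58) and mmu-miR-9 (-0.40). Over all 229 tested assays the median of this difference was 0.33, and 55 of them were lower in knockout replicate 1. Above that median lay mmu-miR-384-3p (1.52) and mmu-miR-134 (1.03), while mmu-miR-383 (0.43), mmu-miR-137 (0.42) and mmu-miR-124 (0.35) were close to it. Of the 15 tested neural assays, 7 were lower in knockout replicate 1 than in replicate 2. These names were chosen after their values were seen, the 2 samples have no replicate of their own, and no test was made.

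The control assays used for scaling were not all steady. U87 had Ct 26.26 and 27.80 in the wild-type samples and 26.08 and 28.26 in the knockout samples, replicate 1 first. In the same order snoRNA202 had 25.24 and 23.42, then 24.36 and 23.75. snoRNA135 had 26.26 and 24.95, then 25.37 and 25.29, and Y1 had 29.23 and 28.80, then 29.88 and 29.32. The sample mean over the MammU6 wells stayed between 15.62 and 16.03, but single wells of wild-type replicate 1 ran from 15.58 to 16.72.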
